A study of Mus musculus with 16 samples.

Results

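Dtna, Crispld1, Aff3, Plac8, Prss23 and Fndc3c1 are 6 of the 21977 gene names in a ribosome profiling table of mouse embryonic stem cells, and they were chosen by their footprint and total RNA values in cells without Nat1, where they fell most. Values of the Nat1-/- cultures are therefore given as a description, with no test. No threshold for the choice is stated. Nat1 is an older name of Eif4g2 (also DAP5), a translation initiation factor related to the scaffold eIF4G but without its hold on the cap-binding protein eIF4E. How the alleles were made is not given in the labels. All 8 cultures were of the RF8 stem cell line, kept with LIF (leukaemia inhibitory factor, which holds stem cells undifferentiated) on gelatin. There were 3 Nat1-/- cultures (B12, B2 and C3), 3 Nat1+/- cultures (A7, B4 and C1) and 2 wild-type (WT) cultures (WTex1 and WTex2). The targeted cultures carry the names of separate clones, while both WT cultures are labelled as replicates of 1 line, so the WT spread holds no clonal difference. Each culture gave a library of ribosome-protected fragments (RPF, the pieces of mRNA covered by ribosomes) and a library of total RNA.

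The 6 genes do unrelated things. Dtna encodes alpha-dystrobrevin, which sits under the cell membrane in the dystrophin complex and holds the syntrophins there. Aff3 encodes a nuclear protein of the AFF family, whose members Aff1 and Aff4 are scaffolds of the super elongation complex, and in mouse stem cells it is known to bind imprinted regions. Plac8 encodes a small cysteine-rich protein first found in placenta. Crispld1 and Prss23 encode secreted proteins, the first with a CAP domain and LCCL domains and the second a serine protease. Fndc3c1 is an X-linked gene of the FNDC3 family, whose proteins carry fibronectin type III domains.

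Values are normalised reads, that is, read counts divided by 1 size factor per library, and are not corrected for length, so they are compared between cultures and not between genes. Sequencing gave between 17.5 and 23.8 mega-reads (M) for an RPF library, and 13.2 to 42.6 M for a total RNA library. Both WT cultures and B12 were sequenced more deeply for total RNA than the other 5, so that in total RNA depth and genotype cannot be told apart between Nat1+/- and WT. Eif4g2 itself averaged 1042 ± 105 normalised RPF reads in Nat1-/- cultures (SD, n = 3), 8381 ± 1636 in Nat1+/- cultures (SD, n = 3) and 15764 ± 2690.3 in WT cultures (SD, n = 2). Its total RNA averaged 8709.7 ± 3582 in Nat1-/-, 12700.3 ± 2389.6 in Nat1+/- and 37458 ± 14812 in WT cultures, and there Nat1-/- and Nat1+/- cultures overlapped. Markers of pluripotent cells, such as Pou5f1 and Nanog, were above 0 in 10 of 10 cases in each library. Their summed RPF level was 190839 to 214933 in Nat1-/-, 116994 to 139177 in Nat1+/- and 96063 to 113598 in WT cultures. All 6 genes passed the filter of a mean of at least 10 over the 8 libraries of each assay, and did so through the Nat1+/- and WT cultures, since 5 of them averaged under 10 in Nat1-/- RPF.

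Promoter sequences are shown because the 6 genes share a low level in Nat1-/- cultures and lie apart in the genome. Crispld1 and Aff3 are on chromosome 1, Plac8 is on chromosome 5, Prss23 on chromosome 7 and Fndc3c1 on the X chromosome, and Dtna is on none of these. RefSeq windows of the build GRCm38.p6, from 250 bases before to 50 bases after a gene's start, were at hand for 4 of the 6. All 4 genes lie on the minus strand. The first listed window of each is printed 5′ to 3′, with matches to GGGCGG and CCAAT on either strand in capitals.
Aff3, chr1:38627195-38627494: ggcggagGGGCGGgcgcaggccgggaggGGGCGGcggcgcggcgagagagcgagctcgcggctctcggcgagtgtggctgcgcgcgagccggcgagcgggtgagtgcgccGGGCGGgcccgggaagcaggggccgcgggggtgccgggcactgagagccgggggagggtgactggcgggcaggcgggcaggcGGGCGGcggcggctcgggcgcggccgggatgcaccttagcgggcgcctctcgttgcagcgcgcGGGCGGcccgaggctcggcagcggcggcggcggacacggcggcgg
Plac8, chr5:100572156-100572455: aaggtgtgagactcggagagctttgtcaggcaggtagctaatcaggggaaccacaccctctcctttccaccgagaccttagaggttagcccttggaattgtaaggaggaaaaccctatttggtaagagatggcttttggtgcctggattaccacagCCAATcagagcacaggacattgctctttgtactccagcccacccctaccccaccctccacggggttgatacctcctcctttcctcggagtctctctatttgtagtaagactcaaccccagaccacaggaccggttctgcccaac
Prss23, chr7:89527138-89527437: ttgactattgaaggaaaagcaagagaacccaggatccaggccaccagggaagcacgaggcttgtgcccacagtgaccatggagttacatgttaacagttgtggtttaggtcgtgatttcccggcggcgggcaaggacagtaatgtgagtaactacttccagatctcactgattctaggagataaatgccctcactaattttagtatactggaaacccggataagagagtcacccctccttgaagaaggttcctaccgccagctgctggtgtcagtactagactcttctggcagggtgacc
Fndc3c1, chrX:106485180-106485479: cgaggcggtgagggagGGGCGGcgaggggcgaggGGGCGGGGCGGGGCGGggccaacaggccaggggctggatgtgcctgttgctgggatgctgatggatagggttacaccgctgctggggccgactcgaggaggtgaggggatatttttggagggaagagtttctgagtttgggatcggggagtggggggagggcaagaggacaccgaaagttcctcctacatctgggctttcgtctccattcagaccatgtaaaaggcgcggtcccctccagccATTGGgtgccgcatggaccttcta
The windows share no plain feature. Aff3 had 54 CpG dinucleotides and a GC content of 83.3%, and 99.6% of the 27025 genes in the table had fewer CpG dinucleotides in their first window. Fndc3c1 had 17, Prss23 had 7 and Plac8 had 5, against a median of 7 over all genes. GGGCGG, the core of the box bound by Sp1, matched 5 times in Aff3 and 4 times in Fndc3c1 with some matches overlapping, and was absent from the Plac8 and Prss23 windows. It was present in 35.9% of all first windows. CCAAT matched once in Plac8 and once in Fndc3c1 (as ATTGG), and was present in 37.9% of all first windows. TATAAA (14.2% of all), the octamer ATGCAAAT (1.75%) and the E-box CACGTG (7.24%) had no match in the 4 windows, which says only that these letters are not there. Prss23 had 7 listed windows with 4 to 41 CpG dinucleotides, of which the 4 with the most CpG held GGGCGG.

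In Nat1-/- cultures each of the 6 genes was down to a few reads, in both assays, and below each Nat1+/- and each WT culture. Such a gap, with Nat1-/- lower and no overlap, was also seen in 23.5% of all tested genes in RPF and 24.6% in total RNA against Nat1+/-, and in 28.9% and 30% against WT. Between Nat1+/- and WT, 3 of the 6 genes did not overlap in RPF (Dtna, Prss23 and Fndc3c1) and 4 in total RNA (these and Crispld1), beside 55.3% and 54.6% of all tested genes in either direction. Dtna had 2.16, 1.78 and 4.56 normalised RPF reads in Nat1-/- cultures B12, B2 and C3, against 291 in A7, 201 in B4 and 188 in C1 of Nat1+/- and 94.8 and 120.1 in WT cultures WTex1 and WTex2. Its total RNA was 4.66, 1.33 and 2.98 in Nat1-/-, 433, 337 and 247 in Nat1+/- and 191 and 209 in WT. Dtna was thus the one gene of the 6 whose highest values were in each assay those of the 3 Nat1+/- cultures, all of them above both WT cultures. Nat1-/- cultures kept 1.25% of the Nat1+/- level in RPF and 0.883% in total RNA.

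Aff3 had 5.4, 1.78 and 6.84 normalised RPF reads in Nat1-/- cultures, against 195, 407 and 185 in Nat1+/- and 149 and 202 in WT. Its total RNA was 8.28, 4 and 8.95 in Nat1-/-, 247, 429 and 186 in Nat1+/- and 289 and 229.9 in WT. B4 was the highest Nat1+/- culture, and the Nat1+/- and WT cultures overlapped in both assays. Aff3 kept 1.78% of the Nat1+/- mean in RPF and 2.46% in total RNA.

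Plac8 had the most reads left. Its normalised RPF reads were 17.3, 12.4 and 13.7 in Nat1-/- cultures, against 554, 1488 and 375 in Nat1+/- and 991 and 944 in WT. Its total RNA was 20.2, 5.33 and 5.96 in Nat1-/-, 599, 1251 and 304 in Nat1+/- and 512 and 639 in WT. The WT cultures lay inside the range of the Nat1+/- cultures, which B4 again led, and Nat1-/- cultures kept 1.79% of the Nat1+/- level in RPF and 1.46% in total RNA. In total RNA the deeply sequenced B12 had 39 reads and B2 and C3 had 4 each, and B12 was still the highest after normalisation.

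Crispld1 had 2.16, 1.78 and 1.14 normalised RPF reads in Nat1-/- cultures, against 108, 260.2 and 90.3 in Nat1+/- and 379.9 and 228 in WT. Its total RNA was 2.07, 1.33 and 1.49 in Nat1-/-, 137, 246 and 97 in Nat1+/- and 436 and 264 in WT. A7 and C1 lay below both WT cultures, and B4 lay beside WTex2. Nat1-/- cultures kept 1.11% of the Nat1+/- mean and 0.557% of the WT mean in RPF. These percentages rest on 5 Nat1-/- reads over 3 libraries, and the exact 95% interval of the pooled read ratio to Nat1+/- was 0.356% to 2.59%. Intervals of this kind cover counting error only, since the reads were pooled and the spread between cultures was left out. The reads carried no molecular identifiers, so copies of 1 fragment could count as separate reads.

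Prss23 and Fndc3c1 were already low in Nat1+/- cultures. Prss23 had 4.32, 4.44 and 1.14 normalised RPF reads in Nat1-/- cultures, against 7.59, 87.1 and 9.45 in Nat1+/- and 343 and 434 in WT. Its total RNA was 1.04, 0 and 0 in Nat1-/-, 18, 111 and 20 in Nat1+/- and 379 and 436 in WT. The 2 zeros allow up to 4 normalised reads in B2 and 4.47 in C3 (3 reads each). Against Nat1+/-, Prss23 was not among the genes that fell most in RPF. It kept 9.51% of the Nat1+/- mean, its log2 difference of -2.33 ± 0.80 (SE) ranked 614 among the falls of 13110 genes, and without B4 it was -1.26. Against WT it kept 0.849% in RPF and ranked 16, and in total RNA it ranked 2 of 13813. Its total RNA in Nat1-/- came to 2 reads, 1.17% of Nat1+/- when pooled, with an exact 95% interval of 0.14% to 4.35%.

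Fndc3c1 had 4.32, 4.44 and 0 normalised RPF reads in Nat1-/- cultures, against 35.8, 262 and 59.8 in Nat1+/- and 681 and 417 in WT. Its total RNA was 0.518, 2.66 and 1.49 in Nat1-/-, 39.2, 153 and 59.9 in Nat1+/- and 432 and 305 in WT. The 3 genotypes did not overlap in either assay, and WT was the highest. The zero in C3 allows up to 3.42 normalised reads. Fndc3c1 kept 2.45% of the Nat1+/- mean and 0.532% of the WT mean in RPF.

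**Figure D1:**
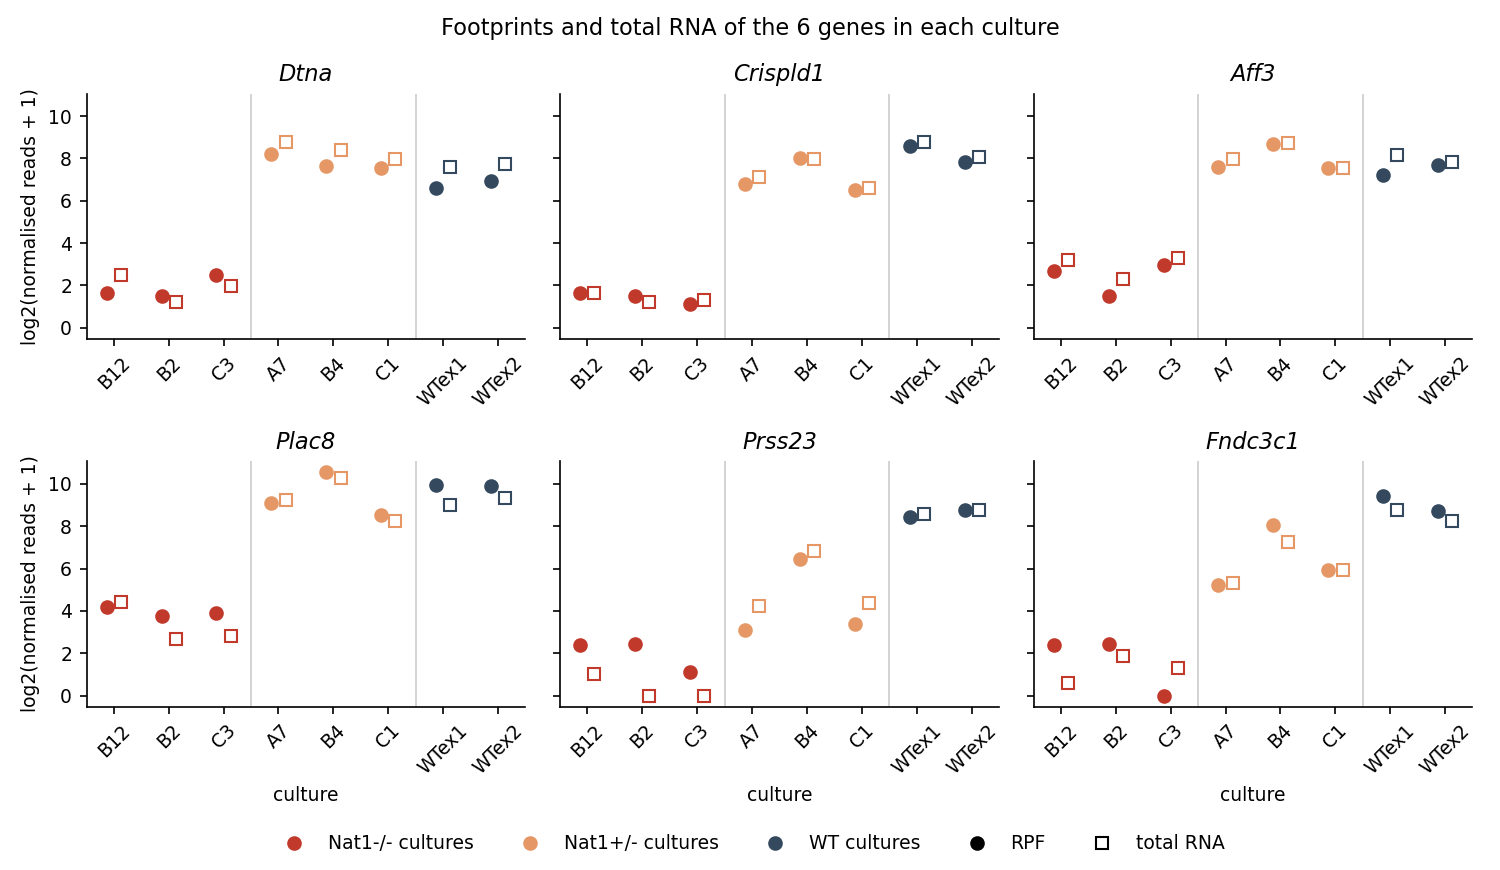
Normalised reads on a log2(value + 1) scale (vertical axis) of the 6 genes in each culture (horizontal axis), with RPF as filled circles and total RNA as open squares. The 3 Nat1-/- cultures lie below the other 5 in each panel, and Prss23 and Fndc3c1 form 3 steps in both assays, with B4 the highest of the Nat1+/- cultures. Crispld1 forms such steps in total RNA alone.

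On the log2(value + 1) scale, which understates the changes of genes this low, RPF differences of Nat1-/- minus Nat1+/- were -5.93 ± 0.35 for Dtna, -5.70 ± 0.43 for Crispld1, -5.57 ± 0.44 for Aff3, -5.47 ± 0.42 for Plac8 and -4.77 ± 0.80 for Fndc3c1 (SE, n = 3 each). They ranked 2, 3, 4, 8 and 22 among the falls of 13110 genes. In total RNA the ranks of 13813 genes were 2 for Dtna, 6 for Crispld1, 20 for Aff3, 5 for Plac8, 26 for Fndc3c1 and 28 for Prss23. The order was another one against WT, where in RPF Fndc3c1 ranked 3, Crispld1 10, Prss23 16, Plac8 34, Aff3 104 and Dtna 124. Comparisons of Nat1-/- with Nat1+/- and with WT share the Nat1-/- libraries. A pseudocount of 5 instead of 1 drew the Dtna difference from Nat1+/- in RPF to -4.88 and that of Crispld1 to -4.41, as it must for values near 0.

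Nat1+/- cultures were then set against WT. The difference itself leaves out Nat1-/- but shares the Nat1+/- and WT libraries with the choice of the genes. Its SE and p-value do not leave out Nat1-/-, since the spread was estimated over all 8 libraries of an assay. The comparison asks how the 6 genes stood in cultures that had lost 1 allele. All of these carry clone names and the WT cultures do not, so loss of the allele and clonal origin cannot be told apart. Prss23 and Fndc3c1 ranked higher among the falls against WT than against Nat1+/- in RPF, and a gene chosen for high WT values tends to lie lower in Nat1+/-. The adjusted p-values that follow (limma, Benjamini-Hochberg over all genes tested, two-sided) are therefore not independent of the choice and describe the fit without supporting a change. Prss23 passed the threshold of 0.05 in both assays and Fndc3c1 in total RNA, each with Nat1+/- lower, and the other 4 genes in neither assay. In RPF 1 of the 6 genes was called, beside 10.5% of all genes in either direction and 5.13% as lower. In total RNA 2 of the 6 were called, both lower, beside 10% in either direction and 5.41% as lower, and nothing is read from these counts.

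Prss23 differed by -4.28 ± 0.90 in RPF (adjusted p = 0.0249) and by -3.52 ± 0.73 in total RNA (adjusted p = 0.0207), with its 3 Nat1+/- cultures below both WT cultures. The Nat1+/- mean was 8.93% of the WT mean in RPF and 12.2% in total RNA. Leaving out WTex1, WTex2, A7 or C1 ended both calls, with adjusted p = 0.235, 0.117, 0.0869 and 0.0635 in RPF and 0.208, 0.12, 0.0712 and 0.0544 in total RNA, while the differences stayed between -3.67 and -4.45 in RPF. Fndc3c1 differed by -2.33 ± 0.58 in total RNA (adjusted p = 0.035) and by -2.67 ± 0.89 in RPF (adjusted p = 0.0794). Its Nat1+/- mean was 22.8% of the WT mean in total RNA and 21.7% in RPF. Its total RNA call was lost on leaving out WTex1, WTex2, A7 or C1 (adjusted p = 0.297, 0.124, 0.109 and 0.0858) and with no filter on low genes (0.0572), and its RPF value was called without B4 (0.0371) or C3 (0.0273) or with a pseudocount of 5 (0.039). The total RNA calls of both genes carry the difference in depth named above.

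Dtna went the other way, by 1.05 ± 0.39 in RPF (adjusted p = 0.101) and 0.72 ± 0.41 in total RNA (adjusted p = 0.257), its Nat1+/- mean being 211% and 169% of the WT mean. Its RPF difference was called without C3 (adjusted p = 0.0394) and by edgeR (0.0481) and DESeq2 (0.0121) on the recovered reads. Crispld1 differed by -1.10 ± 0.48 in RPF (adjusted p = 0.152) and -1.19 ± 0.43 in total RNA (adjusted p = 0.0995), about equally in both. Without B4 its RPF difference was -1.56 (adjusted p = 0.048), and DESeq2 called its total RNA difference (0.0485). Aff3 differed by 0.49 ± 0.50 in RPF (adjusted p = 0.526) and 0.07 ± 0.42 in total RNA (adjusted p = 0.931). Plac8 differed by -0.52 ± 0.47 in RPF (adjusted p = 0.477) and 0.09 ± 0.61 in total RNA (adjusted p = 0.932). The approximate 95% interval of the Plac8 total RNA difference ran from -1.09 to 1.28, wide enough to hold a doubling or a halving of the level, and that of Aff3 ran from -0.75 to 0.88. Without B4 the RPF difference of Plac8 was -1.08 (adjusted p = 0.0449) and its total RNA difference turned to -0.42. That of Aff3 in total RNA turned to -0.27, to -0.10 without WTex2 and to -0.02 with equal library sums, a scaling under which the median of all genes was -0.11 and not -0.02.

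**Figure D2:**
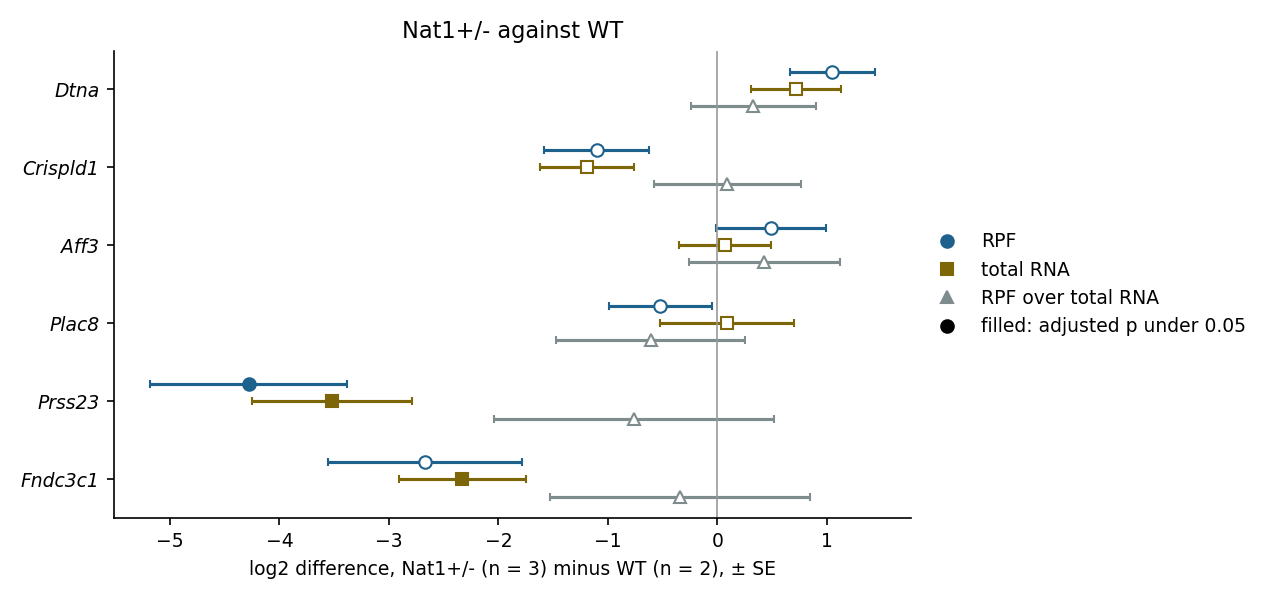
Log2 difference of Nat1+/- (n = 3) minus WT (n = 2) on the horizontal axis for each gene, in RPF, in total RNA and in RPF over total RNA, with bars of ± SE. Filled symbols, which passed an adjusted p of 0.05, are Prss23 in RPF and total RNA and Fndc3c1 in total RNA, and the bars of RPF over total RNA reach across 0 for each gene. Those bars come from the fit that does not pair libraries by culture.

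Translational efficiency (TE) is taken as RPF over total RNA. The 6 genes were lost from total RNA as well as from footprints, so that in Nat1-/- cultures the ratio rested on 0 to 16 RPF reads and 0 to 39 total RNA reads, too few for a comparison. It ran from 0.856 to 2.33 for Plac8, the best covered, and from 0.444 to 0.764 for Aff3. In the other genotypes Dtna had ratios of 0.672, 0.598 and 0.761 in Nat1+/- cultures and 0.496 and 0.574 in WT cultures. Plac8 had 0.925, 1.19 and 1.23 in Nat1+/- and 1.94 and 1.48 in WT, and Prss23 had 0.423, 0.786 and 0.473 in Nat1+/- and 0.905 and 0.996 in WT. Of these 3 genes Dtna had the higher ratios in Nat1+/- cultures, and Plac8 and Prss23 had the lower ones. Their groups did not overlap, which also held for 43.8% of the 12911 genes with total RNA in all 5 cultures. The Prss23 ratios rested on 7 RPF and 11 total RNA reads in A7 and on 9 and 14 in C1. These are about as few as in Nat1-/- cultures, so nothing is read from its gap. The Crispld1 ratios were 0.791 to 1.06 in Nat1+/- and 0.861 to 0.872 in WT, those of Aff3 0.792 to 0.996 in Nat1+/- and 0.516 to 0.88 in WT, and those of Fndc3c1 0.913 to 1.72 in Nat1+/- and 1.37 to 1.58 in WT, and these overlapped. The main fit of TE did not pair the 2 libraries of 1 culture. Its SEs therefore also hold differences between cultures that cancel in a ratio. TE differences of Nat1+/- minus WT were 0.33 ± 0.57 for Dtna, 0.09 ± 0.67 for Crispld1, 0.43 ± 0.69 for Aff3, -0.61 ± 0.86 for Plac8, -0.76 ± 1.28 for Prss23 and -0.34 ± 1.19 for Fndc3c1 (SE). None was called (limma, adjusted p = 1 each), beside 0% of the 12933 genes tested, although 663 of those had an unadjusted p under 0.05. With a term for the culture, which pairs the 2 libraries of 1 culture, 146 genes were called. None of the 6 was among these (limma, adjusted p from 0.339 for Plac8 to 0.904 for Crispld1). DESeq2, run without that term, called 13 genes but gave the 6 no adjusted p, so it decides nothing about them. The Crispld1 difference turned to -0.01 without B4.

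The Nat1+/- cultures were not alike. B4 exceeded A7 by 2.4-fold in RPF for Crispld1, 2.09-fold for Aff3, 2.69-fold for Plac8, 7.33-fold for Fndc3c1 and 11.5-fold for Prss23, and had 0.693 times the A7 value for Dtna. As a share of the WT mean in RPF, Prss23 stood at 22.4% in B4, against 1.95% in A7 and 2.43% in C1. Fndc3c1 stood at 47.7% in B4, against 6.51% in A7 and 10.9% in C1. In total RNA B4 exceeded A7 by 6.17-fold for Prss23 and 3.89-fold for Fndc3c1, so that both assays of B4 held the higher values.

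The sum of fibroblast markers had the same steps, with B4 above A7 and C1 and below both WT cultures and with Nat1-/- lowest, while the order within a step differed. The sum of 11 markers (Col1a1, Col1a2, Col3a1, Thy1, Pdgfra, Pdgfrb, Postn, Dcn, Lum, Acta2 and Tagln) in RPF was 244, 234 and 298 in Nat1-/- cultures B12, B2 and C3, against 751 in A7, 2362 in B4 and 826 in C1 of Nat1+/- and 9531 and 16352 in WT cultures. In total RNA it was 161 to 174 in Nat1-/-, 478 to 1279.7 in Nat1+/- and 3839 to 7937 in WT. Of the 11 markers, 6 were above 0 in each Nat1-/- RPF library, 8 in each Nat1+/- and 10 in each WT one. Dcn and Lum were at 0 in the Nat1-/- RPF libraries, Postn and Lum in Nat1-/- total RNA, and Dcn and Lum in Nat1+/- total RNA. Tagln and Col1a1 made up much of the sum in WT, with 5906 and 5593 normalised RPF reads for Tagln and 1911 and 5922 for Col1a1. Dcn and Lum had few reads in WT too, at 16.3 and 8.71 for Dcn and 3.11 and 0 for Lum in RPF. Neither of them had the steps in total RNA. Prss23 and Fndc3c1 shared these steps with the markers in both assays, and Crispld1 did so in total RNA alone. The part of such cells in the levels of these genes was not tested. In bulk cultures fewer cells of a type and less RNA per cell cannot be told apart.

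**Figure D3:**
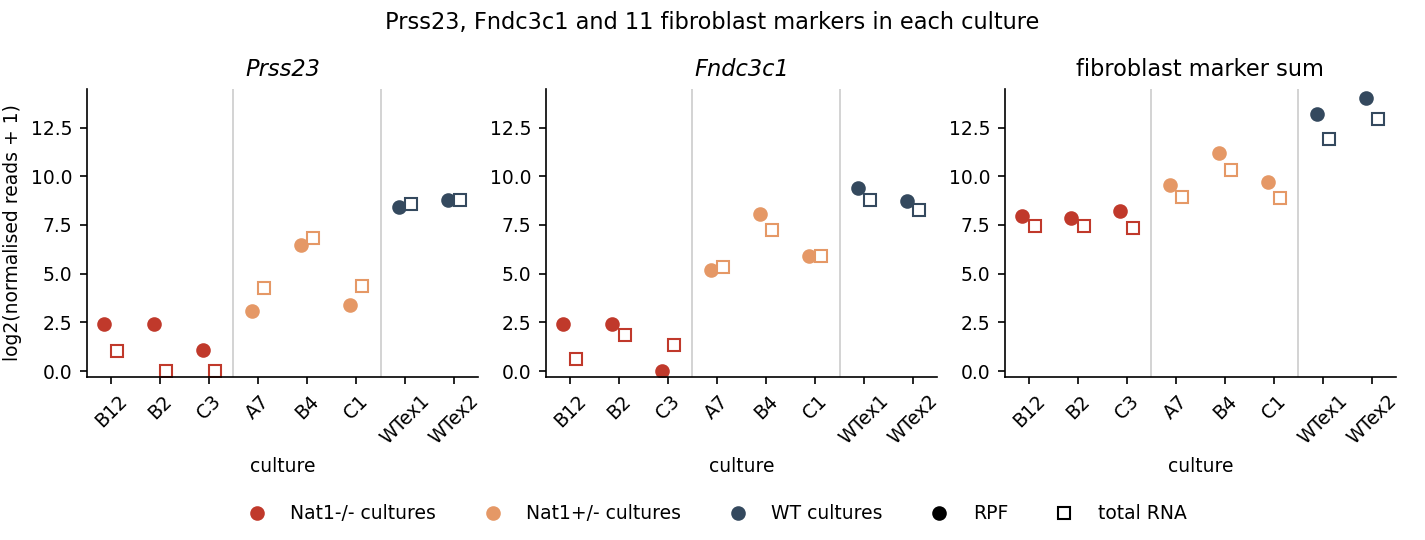
Prss23, Fndc3c1 and the sum of 11 fibroblast markers on a log2(normalised reads + 1) scale (vertical axis) in each culture (horizontal axis), with RPF filled and total RNA open. In each panel B4 stands above A7 and C1 and below both WT cultures, and the Nat1-/- cultures are lowest.

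Dtna, Aff3 and Plac8 did not have those steps in either assay, since B4 or the other Nat1+/- cultures reached or passed WT. Crispld1 had them in total RNA, with 246 in B4 against 264 in WTex2, but not in RPF, where B4 (260.2) lay above WTex2 (228). Markers of primitive endoderm were likewise low in Nat1-/- cultures and overlapped between the other genotypes, with an RPF sum of 1690.1 to 2210.1 in Nat1-/-, 5707 to 9844 in Nat1+/- and 5163 to 7949.8 in WT. All 10 of these markers were above 0 in each Nat1+/- and WT RPF library. The 13 trophoblast and placenta markers had a sum of 482 to 899 in Nat1-/-, 1741 to 2696 in Nat1+/- and 1593 to 2551 in WT in RPF, with Tpbpa and Prl3d1 at 0 in WT and Elf5, Tpbpa and Prl3d1 at 0 in Nat1-/-. The 6 germ cell markers summed to 919.9 to 1765 in Nat1-/-, 2392 to 4380.3 in Nat1+/- and 2713 to 3153 in WT. The sum of the myeloid markers (7) ran the other way in RPF. It was 715 to 1001 in Nat1-/-, 349.5 to 496 in Nat1+/- and 224 to 234 in WT. Fewer of these markers were above 0 in every Nat1-/- RPF library (3) than in every Nat1+/- (4) or WT one (6). Csf1r and Lyz2 were at 0 throughout Nat1-/- RPF, and Lyz2 throughout Nat1+/- and WT RPF as well. In total RNA the myeloid sum overlapped, at 357 to 917 in Nat1-/-, 469.5 to 892 in Nat1+/- and 225 to 506 in WT. The sum of the skeletal muscle markers (7) overlapped between genotypes in both assays. Acta1 among them did not overlap in either assay, and single values of the others are not given here. Its normalised RPF reads were 15.1, 20.4 and 6.84 in Nat1-/- cultures B12, B2 and C3. They were 30.4 in A7, 145 in B4 and 28.3 in C1 of Nat1+/-, and 427 and 528 in WT. The part of any of these cell types in the levels of the 6 genes was not tested.

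The genes most like each of the 6 were looked up by Pearson's r over the 16 libraries, on log2(value + 1) centred within each assay, among 10527 genes with a mean of at least 50 in both assays. These values describe libraries that share a genotype and a depth, and carry no test. They do not measure the size of a change, so a gene with a high r need not be nearly lost. Dtna was nearest to Top1mt, the mitochondrial topoisomerase (r = 0.992), and Hps3 (0.991). Top1mt fell far less than Dtna, with 129 ± 8.75 normalised RPF reads in Nat1-/- and 301 ± 9.52 in Nat1+/- cultures (SD). Aff3 was nearest to Rasgrp1, a Ras activator (0.995), and Sdcbp, or syntenin (0.992). Rasgrp1 was also low in Nat1-/-, with 8.18 ± 4.08 normalised RPF reads in Nat1-/-, 269 ± 76.9 in Nat1+/- and 222 ± 33.1 in WT cultures (SD). Crispld1 was nearest to the DNA methyltransferase Dnmt3a (0.994) and the actin-binding protein Palld (0.993), and Plac8 to Palld (0.987) and Ntpcr (0.987). Dnmt3a itself kept far more, at 379 ± 74.5 in Nat1-/-, against 1774 ± 223 in Nat1+/- and 2551 ± 472 in WT RPF. Prss23 was nearest to the actins Acta1 (0.980), one of the skeletal muscle markers above, and Acta2 (0.979), one of the fibroblast markers. Fndc3c1 was nearest to Serpinb9b (0.986), a serpin, and Gap43 (0.980), a growth cone protein.

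Neighbouring genes were read for whether the stretch of chromosome around each gene was also low in Nat1-/- cultures, as far as they could be tested. For each of the 6 genes the nearest 3 names on each side were taken, 36 in all, by their order in the RefSeq table. Changes of neighbours and relatives are log2 differences of Nat1-/- minus Nat1+/-, with adjusted p-values (limma) in brackets. Between Nat1-/- and Nat1+/-, 5 of 22 tested neighbours fell and 1 rose in RPF, beside 18.6% of all genes called lower and 17.6% called higher. In total RNA 8 of 26 fell and 3 rose, beside 20.2% and 19.8%. The median difference of the neighbours was -0.24 in RPF and -0.34 in total RNA, against 0.02 and 0.01 over all genes. Each tested neighbour differed by less than the gene it stands beside. The choice of the 6 for their falls largely fixes this, so nothing is read from it. Few neighbours could be tested for some genes, such as 1 of 6 for Crispld1 in RPF.

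The neighbour that fell most was Jph1, a junctophilin, on the Crispld1 side. It averaged 10.8 ± 5.86 normalised RPF reads in Nat1-/- and 127 ± 32.6 in Nat1+/- cultures, a log2 difference of -3.56 ± 0.42 (adjusted p = 3.5e-04), and -3.25 ± 0.32 in total RNA (adjusted p = 1.1e-04). Pi15, between Jph1 and Crispld1 and also a CAP protein, was tested in total RNA alone, at 36.9 ± 15.5 in Nat1-/- and 44.1 ± 5.67 in Nat1+/- (-0.33 ± 0.36, adjusted p = 0.491). Beside Aff3, Rev1, a translesion DNA polymerase, fell (-1.79 in RPF, adjusted p = 1.2e-04, and -1.36 in total RNA, 1.1e-04), as did the sulfotransferase Chst10 (-1.77, 0.00134, and -1.21, 0.0142). The initiation factor Eif5b fell by 0.54 in total RNA (0.0139), and Lonrf2, the gene next to Aff3, rose by 1.40 in total RNA (0.0251). Aff3 thus lay between a neighbour that fell and a neighbour that rose.

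Near Fndc3c1 the lysophosphatidic acid receptor Lpar4 fell (-2.63 in RPF, adjusted p = 5.5e-04, and -2.88 in total RNA, 0.00157), and the leukotriene receptor Cysltr1 fell by 1.70 in total RNA (0.0457), on few reads. Fnd3c2, the relative of Fndc3c1 listed beside it, averaged under 1 normalised read in each genotype. Near Plac8, Coq2 fell by 0.76 (0.00303) and Sec31a rose by 0.35 (0.0309) in total RNA, and no neighbour was called in RPF. Near Prss23, Eed of the Polycomb complex rose by 0.56 in RPF (0.034) and by 0.45 in total RNA (0.0489). Near Dtna, Asxl3 fell (-1.28 in RPF, 0.033, and -1.60 in total RNA, 0.0403), while Mapre2 and Zfp397 on the other side were not called. The calls of Asxl3 and Eed were lost on leaving out any one of at least 6 of the 8 cultures (adjusted p up to 0.14 and 0.175). That of Cysltr1 was lost without WTex2, B4, C1, B12 or B2 (up to 0.148), that of Lonrf2 without B4, C1, B12 or B2 (0.0963), that of Sec31a without A7, B4, C1 or B2 (0.128) and that of Chst10 in total RNA without B4 or B2 (0.056). Without B4, C1 or B2 the total RNA count came to 6 of the neighbours.

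**Figure D4:**
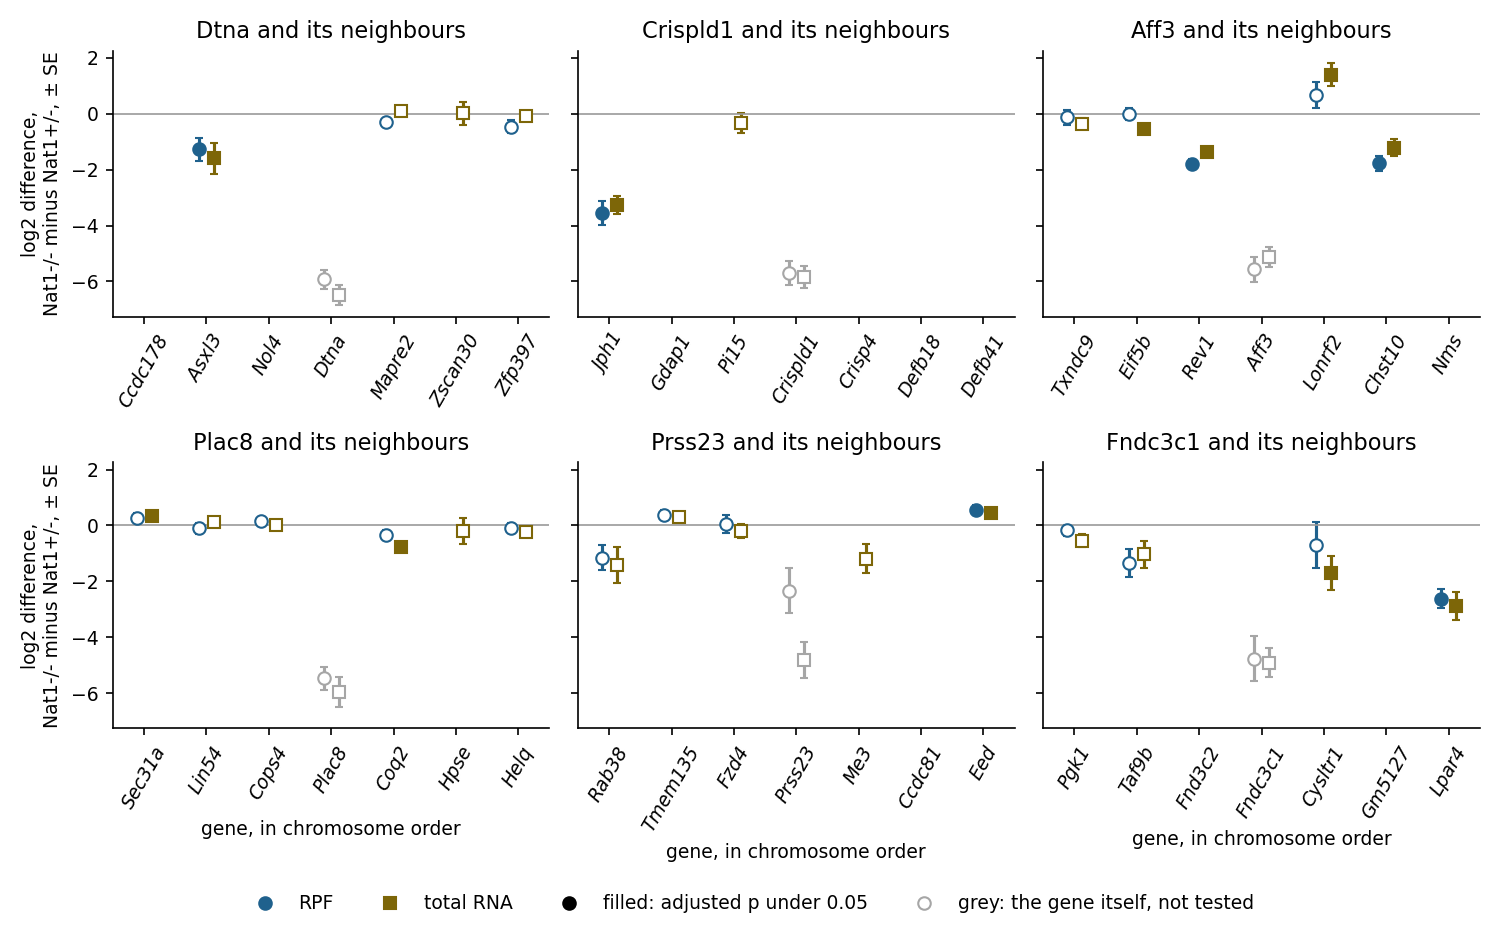
Log2 difference of Nat1-/- minus Nat1+/- (vertical axis, ± SE) for each of the 6 genes, in grey and not tested, and its 3 neighbours on each side in chromosome order (horizontal axis), in RPF and total RNA. Names without a symbol were too low to test. The tested neighbours lie above the grey gene in each panel, which the choice of the 6 genes largely fixes.

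Relatives and partners of the 6 genes were read from lists by family or complex, 74 names in all without the 6 themselves. Of 39 tested in RPF, 10 fell and 8 rose, and of 41 tested in total RNA, 8 fell and 13 rose, with medians of -0.18 and -0.13. Of all genes, 18.6% fell and 17.6% rose in RPF, and 20.2% fell and 19.8% rose in total RNA, against which the counts of the lists below are also to be read. Of the 12 tested genes of the dystrophin complex, 4 fell and 1 rose in RPF, while 2 fell and 3 rose in total RNA. Utrn, or utrophin, fell most, with log2 differences of -2.01 in RPF (adjusted p = 2.6e-04) and -1.90 in total RNA (1.1e-04) and RPF means of 1192 ± 328 in Nat1-/- and 4717 ± 646 in Nat1+/-. Dtnb, the other dystrobrevin, fell by 0.52 in RPF (0.0197), to 313 ± 12.6 in Nat1-/- against 449 ± 37.5 in Nat1+/- cultures. Dmd, or dystrophin, fell by 0.55 (0.0418) and the syntrophin Sntb2 fell by 0.61 (0.0126) in RPF, and the sarcoglycan Sgce fell by 1.09 in total RNA (0.0158). Nos1, a nitric oxide synthase bound by syntrophins, rose by 0.81 in RPF (0.0184) and 1.30 in total RNA (0.00164), and Dag1 and Sntb1 rose by 0.87 (0.00128) and 0.94 (0.0447) in total RNA.

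Of the proteases beside Prss23, 8 were tested, of which RPF had 5 higher and 2 lower and total RNA 5 higher and 1 lower, with medians of 1.43 and 1.31. Prss35, the nearest relative of Prss23 among the listed genes, averaged 350.5 ± 44.5 normalised RPF reads in Nat1-/- and 102 ± 12.6 in Nat1+/- cultures (SD, n = 3 each), and rose by 1.78 ± 0.20 (adjusted p = 2.9e-04) and in total RNA by 1.76 ± 0.18 (1.4e-04). Htra1, a secreted protease, rose by 2.11 in RPF (0.0013) and by 2.08 in total RNA (9.7e-04), and the mitochondrial Htra2 by 1.09 in both (0.00709 and 0.00317). Prss16 rose by 1.77 (0.00277) and 1.54 (0.00191). Prss27 rose to 26.7 ± 6.68 in Nat1-/-, against 1.77 ± 1.61 in Nat1+/- RPF (adjusted p = 0.00528), and in total RNA too (0.0115). The count of 5 higher includes Prss27 in both assays, although it passed the filter on low genes only through its Nat1-/- values. In each assay it could be tested in 5 of the 8 fits that left out a culture. How far its calls rest on single cultures was therefore not fully tested. Prss50 fell (-2.13, 0.00316, and -1.86, 0.00192), and Prss8 fell by 0.93 in RPF (0.0377).

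Of the AFF family and the super elongation complex, 12 were tested, of which RPF had 2 higher and 1 lower and total RNA 5 higher and 2 lower. Aff1 and Aff4, the relatives of Aff3 that are expressed here, rose by 0.57 (adjusted p = 0.0204) and 0.61 (0.00601) in total RNA and differed by 0.36 ± 0.21 (0.202) and -0.18 ± 0.14 (0.33) in RPF. The kinase Cdk9 rose by 0.69 in RPF (0.00363) and 1.01 in total RNA (0.00162), Ell2 rose by 0.47 in RPF (0.0239), and Mllt1 and Ccnt1 rose by 0.70 (0.0175) and 0.40 (0.0167) in total RNA. Mllt3 fell (-1.47, 0.0074, and -1.60, 9.9e-04), and Ccnt2 fell by 0.42 in total RNA (0.0422). Of the CAP superfamily of Crispld1, 2 of 3 tested fell in RPF and 2 of 4 in total RNA, namely Glipr2 (-1.93, 0.0182, and -1.90, 0.00479) and R3hdml (-2.17, 0.00315, and -1.72, 0.00967). Crispld2, the closest relative of Crispld1, averaged 88.3 ± 88 in Nat1-/- and 129.9 ± 33.4 in Nat1+/- RPF and was not called in RPF (adjusted p = 0.229) or total RNA (-1.13 ± 0.71, 0.227). Of the FNDC genes 1 of 4 fell in RPF and 1 of 5 in total RNA, namely Fndc1 (-2.52, 0.013, and -2.67, 0.00997). Fndc3a and Fndc3b, in the family of Fndc3c1, differed by -0.18 ± 0.19 (0.491) and 0.02 ± 0.25 (0.957) in RPF. The listed relatives of Plac8, Plac8l1 and Cnfn, were too low to test.

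Some of these calls rested on single cultures. Those of Dmd and Prss8 in RPF were lost without WTex1, WTex2, A7, C1, B12 or B2 (adjusted p up to 0.135 and 0.117), those of Sntb1 and Ccnt2 in total RNA without at least 6 of the 8 (0.188 and 0.173). Those of Glipr2 and Ell2 in RPF and of Sgce and Mllt1 in total RNA were lost without A7, B4 or B2 (0.0759, 0.0966, 0.0596 and 0.0667). Dtnb was lost without A7 or B2 (0.0722), Nos1 in RPF without A7, C1 or B2 (0.0658), Aff1 without B4, C1 or B2 (0.0785), Sntb2 without C1 (0.0505) and Ccnt1 without B4 (0.053). Without B2 the RPF count of the families came to 11. Calls of Utrn, Prss35, Prss16, Prss50, Htra1, Htra2, Cdk9, Mllt3, R3hdml, Fndc1, Jph1, Rev1 and Lpar4 held in both assays as each of the 8 cultures was left out in turn.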

How the data were processed

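Per the labels' protocols, a TruSeq kit for ribosome profiling served for RPF and total RNA libraries of the same cultures. The authors deposited a normalised signal: per the submitters' processing notes, DESeq2 was used, and the values behave as reads over 1 size factor for each library, since 100% of them came out whole within a tolerance of 0.001. The notes further name bcl2fastq (2.17), cutadapt (1.9.1), HTSeq (0.6.1), Bowtie2 (2.2.8) and TopHat2 (2.1.0), and the builds mm10 and GRCm38.p4. The sources used here do not give how strand or reads with several matches were handled. Because factors were set within an assay, a shift common to most genes is not visible.

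limma 3.58.1 (under R 4.3.3, eBayes with trend) was run on log2(value + 1) for the 8 libraries of an assay, with 3 genotype means, no covariate and a minimum mean of 10. TE was the interaction of assay and genotype in 16 libraries, with no term for the culture in the main fit. A gene was called at a two-sided Benjamini-Hochberg adjusted p under 0.05, adjusted over all genes of that comparison. As alternatives, edgeR 4.0.16 and DESeq2 1.42.0 were run on the recovered reads, and filter, pseudocount, scaling, block and each culture were varied; the fit was tested on simulated data. Deviations from the genotype mean in the RPF and the total RNA library of 1 culture correlated (r = 0.384 to 0.821, the best match in 8 of 8), so a culture term pairs them.

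The 6 genes, the family and marker lists and the tests were chosen with earlier results of these data known. Named genes are the 6, each called neighbour or listed relative, Eif4g2 and the 2 genes most like each of the 6; other names were chosen after their values were seen. Of the names, 20404 (92.8%) matched a RefSeq table of GRCm38.p6, a later patch than the notes give, used for names and gene order, and 27 looked like dates. Replicates differed by more than sampling noise. Beyond the clone names nothing says that cultures were independent, so p-values measure the spread between these cultures.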

Additional observations from a re-analysis of the deposited data

How the results depend on the processing

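The falls of the 6 genes in Nat1-/- kept their direction under the settings run. The RPF difference of Prss23 from Nat1+/- ran from -3.4 to -1.26, the weakest value being that without B4. For Nat1+/- against WT, 251 of 282 alternative values of the 6 genes kept direction and call, 16 lost and 9 gained a call and 6 turned: Aff3 in total RNA to -0.02 with equal library sums and within -0.27 to 0.33 on leaving out a culture (below 0 without WTex2 or B4), Plac8 in total RNA within -0.42 to 0.60 (below 0 without WTex1 or B4), and the TE of Crispld1 within -0.01 to 0.19 (below 0 without B4). In RPF 1 of the 6 was called, 2 with a pseudocount of 5, edgeR or DESeq2, and 0 to 4 on leaving out a culture. In total RNA 2 were called, 3 with DESeq2, 1 with no filter and 0 to 2 on leaving out a culture, and for TE 0 to 0. Same-numbered cultures of different genotypes correlated at -0.126 to 0.249 in RPF and -0.192 to 0.329 in total RNA, so the numbers do not pair them. With a replicate block 0 of the 6 were called in either assay, and 162 genes in RPF and 190 in total RNA, against 1374 and 1383 without it. DESeq2 called 2519 and 2559. Leaving out a culture gave 0 to 2634 and 0 to 2846, the cause not being tested. For TE, DESeq2 called 13 genes and the replicate block by culture 146, and leaving out a culture gave 0 to 2. Of Nat1-/- against Nat1+/-, leaving out a culture gave 2821 to 5464 genes in RPF and 3608 to 6261 in total RNA (4737 and 5519 with all), 4 to 9 and 6 to 12 neighbours, and 11 to 21 and 15 to 24 relatives. With the 5 cultures of shallow total RNA, 6 neighbours were called. Of 933 alternative values of neighbours and relatives, 122 lost the call and 0 turned. Depth limits what the few Nat1-/- reads can show.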
